A study of Mus musculus with 11 samples.

Results

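Serpinb1a, Serpinb6a, Serpinb6b, Serpinb9, Serpina3g and Cst7 encode 5 serpins and a cystatin, and were taken by symbol as 6 genes of the 52636 in the count table. Each symbol matched 1 row, and all 6 genes passed the filter on low counts, with at least 45 counts in every library. RNA was sequenced from CD8 T cells sorted from spleens of C57BL/6 mice in 3 groups. The naive group (3 libraries) was CD44lo CD8 T cells, whose labels carry an unexplained time entry of 6 to 8 weeks. The CD45RBhi and CD45RBlo groups (4 libraries each) were memory CD8 T cells that bind a tetramer of the NP396 peptide of lymphocytic choriomeningitis virus (LCMV), taken 42 to 45 days after infection with 200000 pfu of the Armstrong strain. They differ in surface CD45RB, a splice form of the phosphatase CD45. The labels state neither the animals behind each library nor the age of the infected mice, so a p-value here speaks only of the variation among these libraries, some of which may be technical. Libraries held 18.02 to 23.15 M counts (M for mega), so 3 counts, the most that a count of 0 allows, come to 0.130 to 0.166 counts per M (CPM). Such limits cover counting error only.

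Serpins are inhibitors that offer a protease a bait loop; cleavage of the loop traps the enzyme in an inactive complex. Clade B serpins lack a classical secretion signal and act in the cytosol and nucleus, where they can meet granule proteases that leak from the cell's own lytic granules. Cystatins block papain-like cysteine proteases of the lysosome in a reversible way, and cystatin F, the product of Cst7, acts in the lysosomes and granules of immune cells. Cytotoxic T cells carry granzymes in such granules, and cathepsin C removes the propeptide that keeps granzymes inactive.

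The genes lie at 3 places of the mouse genome (GRCm38, positions from GENCODE M21). On chromosome 13 are Serpinb1a (ENSMUSG00000044734, 32842092 to 32851185), Serpinb6b (ENSMUSG00000042842, 32965209 to 32979067), Serpinb9 (ENSMUSG00000045827, 33003250 to 33017957) and Serpinb6a (ENSMUSG00000060147, 33917918 to 34002794). Serpinb6b and Serpinb9 are read from the same strand with 24.2 kb between them. Serpina3g (ENSMUSG00000041481) lies on chromosome 12 from 104236245 to 104241939 and Cst7 (ENSMUSG00000068129) on chromosome 2 from 150570415 to 150578944. RefSeq promoter windows (GRCm38.p6, 250 bases before to 50 after a start site) matched 5 of the 6 genes. The windows of Serpina3g, Serpinb9, Serpinb6b and Cst7 are shown 5′ to 3′ because these genes rose together in memory cells (values follow), with every motif match in capitals.

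Serpina3g, chr12:104235897-104236196, plus strand: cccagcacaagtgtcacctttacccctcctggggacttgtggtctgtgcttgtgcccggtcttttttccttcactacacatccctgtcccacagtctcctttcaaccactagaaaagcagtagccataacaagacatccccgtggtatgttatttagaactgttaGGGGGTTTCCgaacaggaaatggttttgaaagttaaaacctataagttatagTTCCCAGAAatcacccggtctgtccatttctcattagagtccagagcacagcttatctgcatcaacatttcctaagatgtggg
Serpinb9, chr13:33004291-33004590, plus strand: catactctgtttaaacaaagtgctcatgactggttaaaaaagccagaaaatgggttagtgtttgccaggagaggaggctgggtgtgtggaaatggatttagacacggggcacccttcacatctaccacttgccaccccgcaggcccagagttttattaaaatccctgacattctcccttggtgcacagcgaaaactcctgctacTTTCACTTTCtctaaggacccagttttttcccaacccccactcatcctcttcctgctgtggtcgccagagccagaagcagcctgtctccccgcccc
Serpinb6b, chr13:32965011-32965310, plus strand: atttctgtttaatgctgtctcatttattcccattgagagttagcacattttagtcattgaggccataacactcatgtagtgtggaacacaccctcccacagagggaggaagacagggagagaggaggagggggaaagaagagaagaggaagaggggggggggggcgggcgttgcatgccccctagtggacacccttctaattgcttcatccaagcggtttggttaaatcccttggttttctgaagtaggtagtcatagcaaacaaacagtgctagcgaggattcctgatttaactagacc
Cst7, chr2:150570165-150570464, plus strand: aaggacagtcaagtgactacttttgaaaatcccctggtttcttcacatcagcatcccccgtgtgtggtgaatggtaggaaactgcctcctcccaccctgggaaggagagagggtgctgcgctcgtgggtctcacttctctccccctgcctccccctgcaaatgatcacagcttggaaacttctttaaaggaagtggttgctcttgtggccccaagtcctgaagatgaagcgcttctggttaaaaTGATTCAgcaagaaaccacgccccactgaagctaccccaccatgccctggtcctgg

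The capitals in the Serpina3g window are GGGGGTTTCC, a match to an NF-kappaB motif (GGG, any 2 bases, TT, any base, CC) whose first base lies at -85 from the start site, and TTCCCAGAA, a match to the STAT letters TTCNNNGAA at -33. The Serpinb9 window holds TTTCACTTTC at -46, which on the other strand matches an interferon response motif (GAAA, any 2 bases, GAAA). The Cst7 window holds TGATTCA at -6, a match to the AP-1 letters TGANTCA. These matches do not overlap each other. The Serpinb6b window held none of the 8 motifs searched on both strands. The first of the 2 Serpinb6a windows held the STAT letters at -77 and 20 and the interferon letters at -84, the last overlapping the match at -77. Of 32851 windows of this length, 8.30% held the STAT letters, 3.44% the interferon letters, 7.81% the AP-1 letters and 4.79% the NF-kappaB letters. The other motifs had no match in these genes: the T-box site TCACACC (3.98% of windows), the RUNX site TGTGGTT (5.27%), the TCF/LEF core CTTTGA (16.003%) and the TATA box TATAAA (13.6%). These matches describe letters and not bound sites.

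Against naive cells, 5 of the 6 genes were higher in CD45RBhi memory and the same 5 were higher in CD45RBlo memory, while Serpinb6a passed in neither. Serpina3g rose most, followed by Serpinb9 and Serpinb6b, and Cst7 and Serpinb1a rose less. Among all 13735 genes tested with edgeR's quasi-likelihood test (adjusted p under 0.05), 22.3% were higher in CD45RBhi than in naive and 22.4% in CD45RBlo. In either direction 41.5% and 42.2% were called, and 19.1% and 19.8% were lower. The same 5 genes did not overlap between naive and either memory group, each higher in memory. Of all genes, 47.4% did not overlap between naive and CD45RBhi (24.1% higher and 23.3% lower in CD45RBhi) and 49.6% between naive and CD45RBlo (25.2% higher and 24.3% lower in CD45RBlo). The median log2 fold change of the 6 genes was 1.80 for CD45RBhi and 2.26 for CD45RBlo, beside -0.01 for all genes in each comparison. Both comparisons share the naive libraries. In bulk RNA, fewer cells that express a gene and less RNA per cell cannot be told apart.

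**Figure D1:**
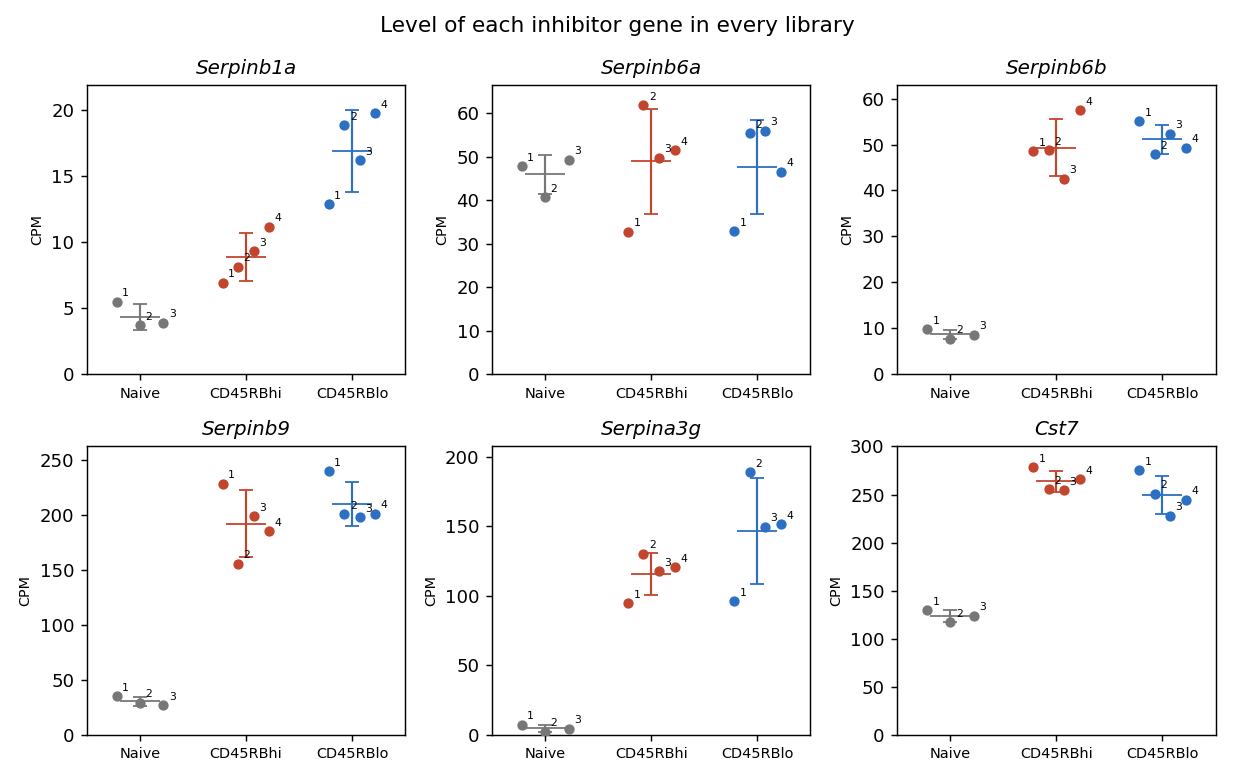
CPM (TMM-scaled counts per M) of each gene in the 3 naive, 4 CD45RBhi and 4 CD45RBlo libraries, numbered by replicate, with the mean and SD as bars. Both memory groups lie above the naive libraries in every panel but that of Serpinb6a, where the groups overlap.

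Serpina3g encodes Spi2A, an intracellular serpin of the antichymotrypsin clade known to inhibit lysosomal cathepsins in the cytosol. Its level was 7.22, 2.33 and 4.28 CPM in the naive libraries, 94.6, 130.2, 118 and 121 CPM in CD45RBhi and 96.1, 189, 149.7 and 152 in CD45RBlo (replicates in order). Every memory library stood far above every naive library, and the naive libraries themselves spread widely. The rise was 24.9-fold in CD45RBhi (log2 fold change 4.64 ± 0.335 SE, adjusted p = 2.27e-07) and 31.5-fold in CD45RBlo (4.98 ± 0.339, adjusted p = 1.21e-07).

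Serpinb9 encodes the mouse counterpart of PI-9, the cytosolic inhibitor of granzyme B. It was at 35.3, 29.4 and 26.98 CPM in naive, 228, 156, 199 and 185 in CD45RBhi and 239, 201, 197 and 201 in CD45RBlo libraries. No memory library came near the naive range. The gene rose 6.28-fold in CD45RBhi (log2 fold change 2.65 ± 0.145, adjusted p = 1.74e-08) and 6.86-fold in CD45RBlo (2.78 ± 0.146, adjusted p = 1.09e-08).

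Serpinb6b, whose product inhibits mouse granzyme A, was at 9.73, 7.73 and 8.57 CPM in naive, 48.5, 48.7, 42.5 and 57.5 in CD45RBhi and 55.1, 47.9, 52.4 and 49.3 in CD45RBlo libraries. The memory groups overlapped each other and both lay above naive. It rose 5.68-fold in CD45RBhi (log2 fold change 2.51 ± 0.132, adjusted p = 1.21e-08) and 5.89-fold in CD45RBlo (2.56 ± 0.132, adjusted p = 9.19e-09).

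Cst7, cystatin F, is a granule and lysosome inhibitor that can act on cathepsin C. It was at 129.9, 117 and 124 CPM in naive, 278, 256, 255 and 266 in CD45RBhi and 275, 251, 228 and 245 in CD45RBlo libraries. The naive level was already high, and every memory library lay above it. The gene rose 2.13-fold in CD45RBhi (log2 fold change 1.09 ± 0.0816, adjusted p = 3.16e-07) and 2.02-fold in CD45RBlo (1.01 ± 0.0814, adjusted p = 5.88e-07).

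Serpinb1a encodes a counterpart of the human leukocyte elastase inhibitor, which blocks neutrophil serine proteases. It had the lowest mean of the 6 genes in both memory groups, and was at 5.48, 3.68 and 3.89 CPM in naive, 6.92, 8.11, 9.30 and 11.1 in CD45RBhi and 12.9, 18.8, 16.2 and 19.8 in CD45RBlo libraries. The 3 groups did not overlap: naive was lowest, CD45RBhi intermediate and CD45RBlo highest. The rise over naive was 2.03-fold in CD45RBhi (log2 fold change 1.02 ± 0.220, adjusted p = 0.0024) and 3.88-fold in CD45RBlo (1.96 ± 0.224, adjusted p = 1.55e-05).

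Serpinb6a, a broadly expressed inhibitor of trypsin-like proteases and cathepsin G, was at 47.7, 40.7 and 49.2 CPM in naive, 32.7, 61.8, 49.7 and 51.4 in CD45RBhi and 32.9, 55.3, 55.9 and 46.5 in CD45RBlo libraries. The groups overlapped throughout. Its log2 fold change against naive was 0.09 in CD45RBhi (95% interval -0.39 to 0.58, adjusted p = 0.756) and 0.05 in CD45RBlo (-0.43 to 0.54, adjusted p = 0.859). The sign of both values turned with library size as the scaling (-0.051 and -0.076). Serpinb6a shares exon bases with genes on the opposite strand, 762 with Nqo2 and 241 with Ripk1, and whether reads were counted by strand is not given. Nqo2, a quinone reductase, went from 6.20 ± 1.03 CPM in naive to 37.1 ± 1.98 in CD45RBhi and 41.3 ± 4.77 in CD45RBlo libraries. Its part in the Serpinb6a counts was not tested.

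**Figure D2:**
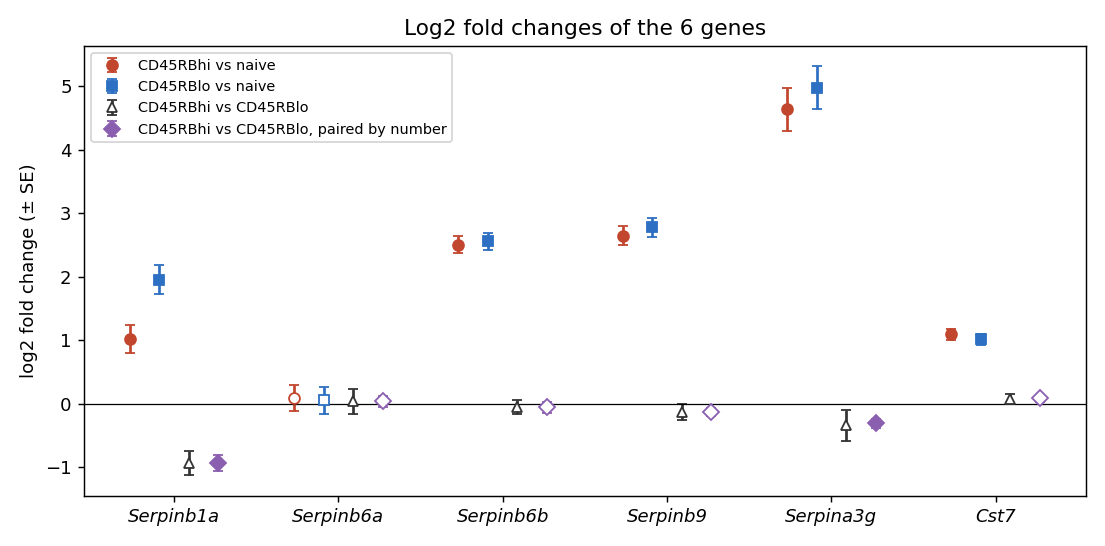
Log2 fold change with its SE for each gene in the 3 comparisons and in the fit of CD45RBhi against CD45RBlo paired by replicate number; filled symbols mark adjusted p under 0.05. Serpina3g lies highest at 4.64 and 4.98, and Serpinb1a is the lowest point between the memory groups at -0.93.

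Levels of different genes can be compared per length of exon, taken here as all annotated exons of a gene merged. That length was 5409 bases for Serpinb6a, which has 17 annotated transcripts, and 986 (Cst7) to 3494 (Serpinb9) for the other genes. Which transcripts these cells use was not tested, so the order below holds for this definition of length. In CPM per kb, Cst7 stood highest in every group, at 125 ± 6.37 in naive (n = 3), 267 ± 11.3 in CD45RBhi (n = 4) and 253 ± 19.9 in CD45RBlo (n = 4). In naive cells Serpinb9 (8.74 ± 1.22) and Serpinb6a (8.48 ± 0.847) followed with overlapping libraries, then Serpinb6b (3.83 ± 0.445). Serpina3g (2.19 ± 1.17) and Serpinb1a (1.89 ± 0.428) came last and overlapped, and the highest Serpina3g library (3.429) just passed the lowest of Serpinb6b (3.416). In CD45RBhi cells Serpina3g (55.0 ± 7.18) and Serpinb9 (54.9 ± 8.64) overlapped below Cst7, followed by Serpinb6b (21.8 ± 2.72), Serpinb6a (9.04 ± 2.23) and Serpinb1a (3.85 ± 0.782). The order of means was the same in CD45RBlo cells, with Serpina3g at 69.6 ± 18.1, Serpinb9 at 59.98 ± 5.71, Serpinb6b at 22.6 ± 1.42, Serpinb6a at 8.81 ± 1.99 and Serpinb1a at 7.34 ± 1.35. There Serpina3g overlapped Serpinb9, and Serpinb6a overlapped Serpinb1a.

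Between CD45RBhi and CD45RBlo memory, none of the 6 genes passed in the fit without pairs, where 0.124% of all genes were called (0.0801% higher and 0.0437% lower in CD45RBhi). Serpinb1a was the 1 gene of the 6 with an unadjusted p under 0.05, and the 1 that DESeq2 called. Its log2 fold change was -0.93 ± 0.194 (95% interval -1.38 to -0.49, adjusted p = 0.135). Every CD45RBhi library lay below every CD45RBlo library, which held for 2.31% of all genes in this direction, 2.68% in the other and 4.99% in all. Same-numbered memory libraries deviated together from their group means, so the comparison was also made within numbers, with the replicate number as a block. In that paired fit of the 8 memory libraries, 2 of the 6 genes were lower in CD45RBhi, beside 3.08% of 12637 genes lower, 2.52% higher and 5.59% called in either direction.

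Serpinb1a was lower in CD45RBhi in 4 of 4 pairs, at 0.538, 0.431, 0.575 and 0.564 times the CD45RBlo level of the same number. The pairs lay close to each other, and the fall had a log2 fold change of -0.93 ± 0.126 (paired adjusted p = 0.00188). Leaving out any pair kept the call (adjusted p = 0.00431 to 0.0167). With the block over all 11 libraries the adjusted p was 0.0975.

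Serpina3g was lower in CD45RBhi in 4 of 4 pairs, at 0.984, 0.690, 0.787 and 0.797 times the CD45RBlo level. Pair 1 was nearly level and the other three were apart by a similar factor. The paired log2 fold change was -0.31 ± 0.0755 (paired adjusted p = 0.0345), against -0.34 ± 0.242 without pairs (adjusted p = 0.728). The call was lost without pair 2 (adjusted p = 0.0959), pair 3 (0.157) or pair 4 (0.11), and with the block over all 11 libraries (0.685).

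The remaining genes were not called by either fit. Cst7 was higher in CD45RBhi in 4 of 4 pairs by a small amount, with a paired log2 fold change of 0.08 ± 0.0529 (adjusted p = 0.389). Serpinb9 was lower in 3 of 4 pairs (-0.13 ± 0.0648, adjusted p = 0.253). Serpinb6b (-0.06 ± 0.0898, adjusted p = 0.770) and Serpinb6a (0.04 ± 0.0803, adjusted p = 0.840) were lower in 2 of 4 pairs each. Without pairs, the 95% intervals of the difference were -0.09 to 0.25 for Cst7, -0.41 to 0.15 for Serpinb9, -0.30 to 0.20 for Serpinb6b and -0.41 to 0.49 for Serpinb6a.

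**Figure D3:**
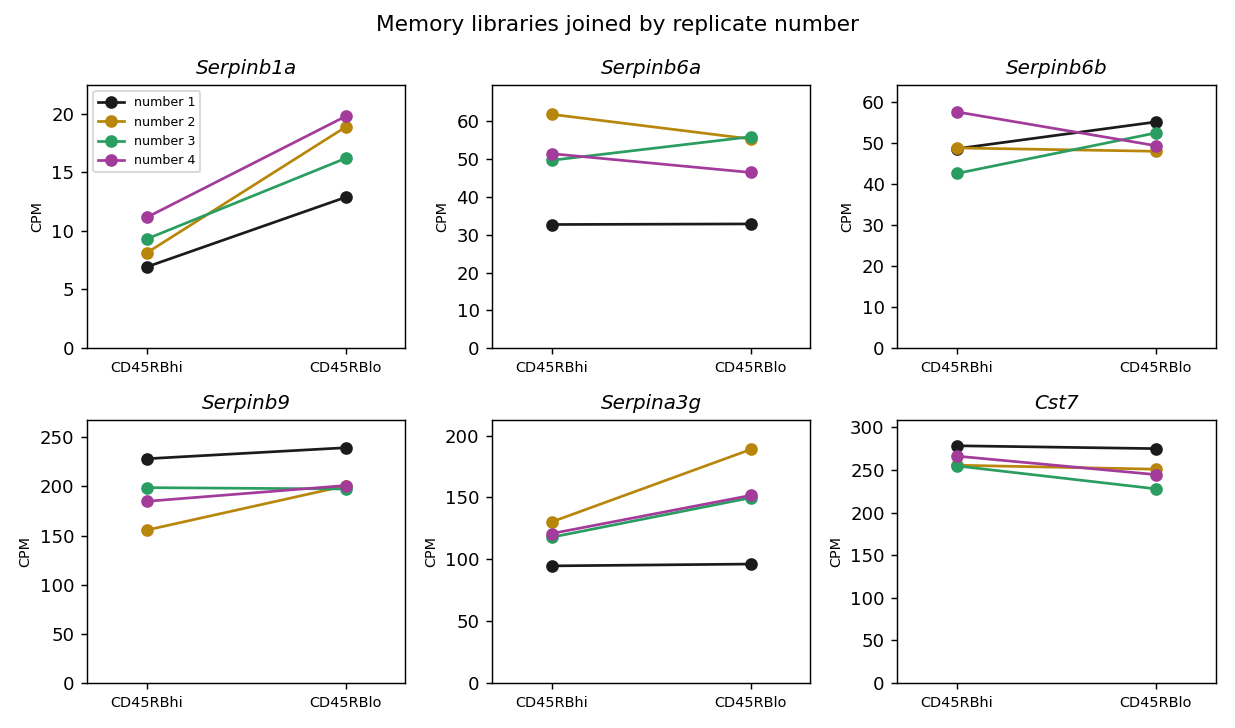
CPM in CD45RBhi and CD45RBlo libraries joined by replicate number. All 4 lines of Serpinb1a rise towards CD45RBlo, and the line of number 1 lies apart from the others for Serpinb6a, Serpinb9 and Serpina3g.

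The replicate number went with the level of several genes in both memory groups. Serpinb6a was at 32.7 and 32.9 CPM in the libraries numbered 1 and at 46.5 to 61.8 in the other 6 memory libraries. Serpina3g was at 94.6 and 96.1 CPM in those numbered 1 and at 118 to 189 in the others. For Serpinb1a the library numbered 1 was also the lowest within each memory group. It was at 6.92 CPM in CD45RBhi (others 8.11 to 11.1) and at 12.9 in CD45RBlo (others 16.2 to 19.8). The libraries numbered 1 were the highest for Serpinb9, at 228 and 239 CPM against 156 to 201, and for Cst7, at 278 and 275 against 228 to 266. Serpinb6b showed no such gap, with 48.5 and 55.1 CPM against 42.5 to 57.5. What sets these libraries apart was not tested. Over the 8 memory libraries, Serpinb6a and Serpinb9 had Pearson's r = -0.87, Serpina3g and Serpinb6a 0.75, Serpina3g and Serpinb1a 0.73, and Serpina3g and Cst7 -0.76. These values describe libraries that share replicate numbers.

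The 5 serpins sit in gene clusters with many members at 0 counts. The chromosome 13 cluster spans 1.16 Mb with 15 annotated serpin genes, of which 8 had no count in any library and 6 were tested: Serpinb1a, Serpinb6b, Serpinb9, Serpinb9b, Serpinb1b and Serpinb6a. Serpinb9c, Serpinb9d, Serpinb9e, Serpinb9f and Serpinb9g, relatives of Serpinb9, were at 0 counts in all 11 libraries, as were Serpinb1c, Serpinb6d and Serpinb6e. The chromosome 12 cluster spans 0.800 Mb with 23 serpin genes, of which 16 had no count and 2 were tested, Serpina3g and its neighbour Serpina3f. Between related copies, shared sequence can move counts. Of the 50-base stretches in the transcripts of Serpina3g, 15.5% also occur in another gene, 2.92% of those of Serpinb6b, 2.81% of Serpinb1a, 0.378% of Serpinb9 and 0 of Cst7. For Serpinb6a it was 25.1%, mostly in overlapping genes of the opposite strand and not in related copies. Nqo2 held 12.5%, the antisense gene 1110046J04Rik 8.52% and Ripk1 3.39%, while the related Serpinb6c held 0.367%. How reads that fit several genes were counted is not given.

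**Figure D4:**
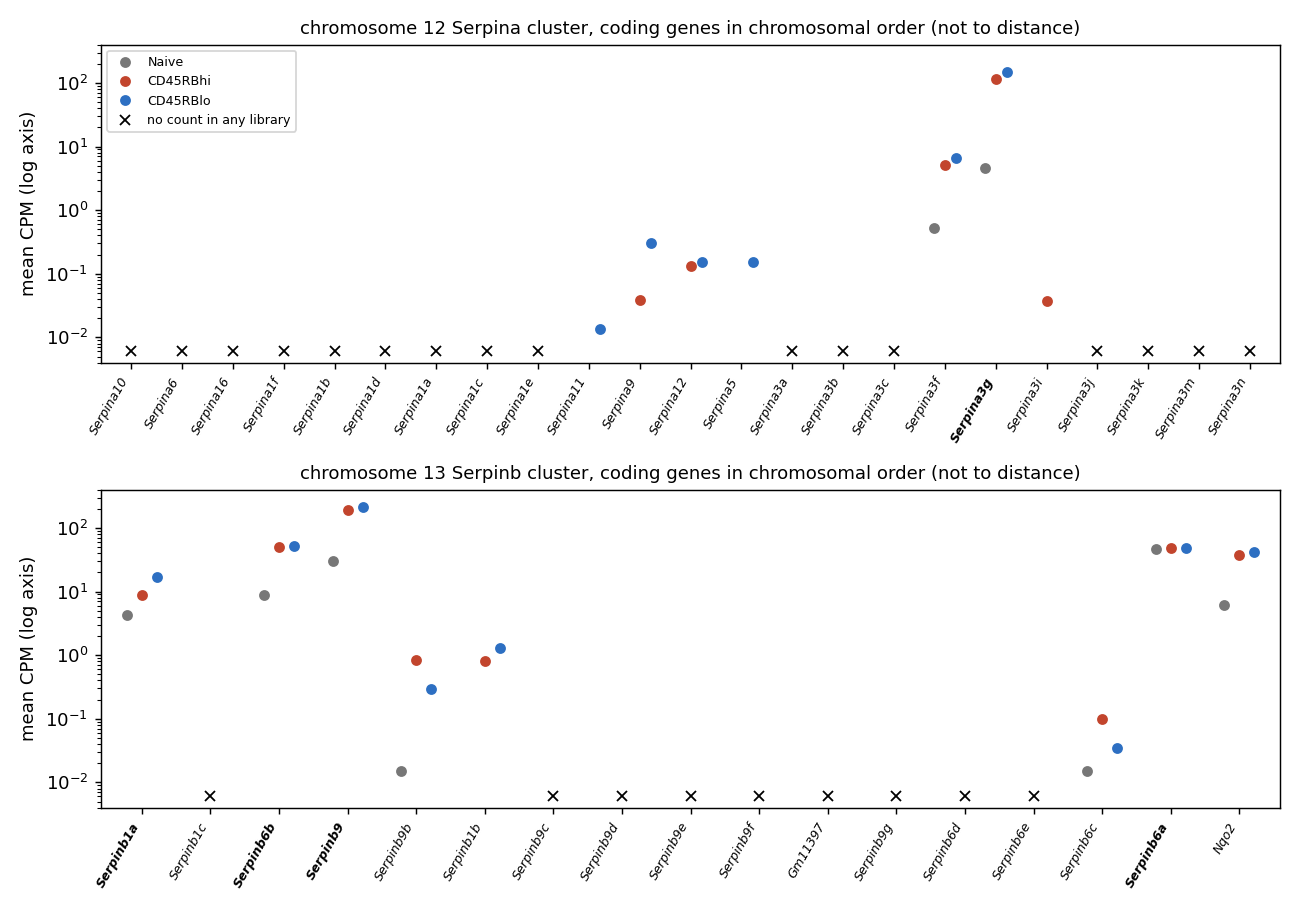
Mean CPM on a log axis of the coding genes of the chromosome 12 and chromosome 13 serpin clusters, in chromosomal order, for naive, CD45RBhi and CD45RBlo libraries; crosses mark genes with no count, and the genes described here are in bold. Mean levels above 8 CPM in memory are found for Serpina3g on chromosome 12 and to Serpinb1a, Serpinb6b, Serpinb9, Serpinb6a and the overlapping gene Nqo2 on chromosome 13.

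A few further serpins were also higher in memory cells, most of them at much lower counts. Of 53 other serpin genes listed, 23 had a count and 5 were tested. Against naive, 4 were higher in CD45RBhi and 4 in CD45RBlo, and 0 were lower in either (median log2 fold change 3.31 and 3.64). Serpina3f, Serpine2, Serpinb1b and Serpinb9b, at 0 to 14 counts in naive libraries, passed the filter through the memory libraries. The filter thus left little room for a fall, and the direction and the medians depend on it. Serpinb7, Serpinb8, Serpinb10 and Serping1, counted mainly in naive libraries at 6 counts or fewer, were not tested. Serpina3f went from 0.516 ± 0.191 CPM in naive to 5.21 ± 1.78 in CD45RBhi and 6.51 ± 1.47 in CD45RBlo (adjusted p = 1.95e-05 and 7.92e-06). Serpine2, protease nexin 1, an inhibitor of thrombin and urokinase, went from 0.293 ± 0.0862 CPM to 2.12 ± 0.508 and 1.29 ± 0.136 (adjusted p = 4.12e-05 and 0.000414). Serpinb1b had 0 counts in naive libraries and 0.815 ± 0.322 and 1.28 ± 0.376 CPM in memory, at least 16.7-fold and 26.3-fold higher (3 counts over the naive group). Serpinb9b passed in CD45RBhi at 0.826 ± 0.547 CPM against 0.0152 ± 0.0264 (adjusted p = 0.0107), and was at 0.290 ± 0.310 in CD45RBlo (adjusted p = 0.0713). The fourth gene called in CD45RBlo was Serpini1 (log2 fold change 0.45, adjusted p = 0.0255), named after its values were seen. That call was lost with library size as the scaling and without naive replicate 1, 2 or 3 or CD45RBlo replicate 3 or 4, which left 3 genes called. Of the 50-base stretches of Serpina3g, 6.29% also occur in Serpina3f. The share is 1.93% of Serpinb1a in Serpinb1b and 0.378% of Serpinb9 in Serpinb9b. The part of such shared reads in the rises of Serpina3f, Serpinb1b and Serpinb9b was not tested. With paralogs summed, 2 other serpins were tested and 1 was higher in CD45RBhi than in naive. Of 23 other cystatins and stefins, 2 were tested. Cst3, cystatin C, a secreted inhibitor of cathepsins, went from 59.2 ± 1.42 CPM to 112 ± 3.81 and 107 ± 6.32 (adjusted p = 9.81e-07 and 1.87e-06), and Cstb did not pass (0.205 and 0.0865 on the log2 scale). None of these serpins or cystatins was called between the memory groups by either fit.

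Granule serine protease genes also moved, among them Gzmb and Gzma, whose products are targets of the Serpinb9 and Serpinb6b products. Of 19 granule serine protease genes, 6 had a count and 5 were tested, and the 5 were higher than naive in both memory groups (median log2 fold change 6.66 and 7.15, or 6.82 in place of 7.15 with Cma1 at its lower bound). Gzmk (2 to 3 naive counts) and Cma1 (0) passed the filter through the memory libraries. Gzmc, not tested, went the other way, with 8 to 10 counts in naive, 0 to 3 in CD45RBhi and 0 to 2 in CD45RBlo libraries. With no filter Gzmc was called lower in CD45RBhi and was not called in CD45RBlo. Gzmb, granzyme B, went from 3.80 ± 1.64 CPM to 385 ± 65.1 and 430 ± 83.2, and Gzma, granzyme A, from 1.40 ± 0.411 to 601 ± 230 and 1088 ± 285. Gzmk and Gzmm rose too, and Cma1, chymase, was at least 11.4-fold and 17.8-fold higher against 0 naive counts. In the paired fit Gzma (-0.90, adjusted p = 0.000607) and Gzmk (-0.32, adjusted p = 0.0176) were lower in CD45RBhi, Gzmm was higher (0.68, adjusted p = 0.00025), and Gzmb was not called (-0.15, adjusted p = 0.173). Gzmk was not called without pair 1. Elane, Prtn3 and Ctsg, which encode neutrophil elastase, proteinase 3 and cathepsin G, targets of the Serpinb1a and Serpinb6a products, had no count in any library.

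Lysosomal proteases moved both ways. Of 15 cathepsin, legumain and napsin genes, 14 were tested, and 7 were higher and 5 lower in CD45RBhi than in naive (6 and 5 in CD45RBlo; median log2 fold change 0.25 and 0.08). Ctsb, cathepsin B, went from 321 ± 23.1 CPM to 573 ± 70.2 and 563 ± 60.3 (adjusted p = 6.35e-05 and 7.44e-05). Ctsc, cathepsin C, went from 223 ± 20.7 to 361 ± 7.10 and 384 ± 30.2 (adjusted p = 2.91e-05 and 9.33e-06). Ctsd, an aspartic protease, rose by 2.00 and 2.14 log2 units and Ctsw, a cathepsin of cytotoxic cells, by 1.15 and 1.01. Ctse fell from 671 ± 41.7 CPM to 38.8 ± 5.71 and 35.7 ± 6.89, and Ctsl, cathepsin L, from 29.1 ± 2.48 to 4.51 ± 0.955 and 4.18 ± 1.84. None of the 14 was called between the memory groups without pairs and none of 12 with pairs.

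Other protease inhibitors gave no common direction. Of 25 listed, 10 were tested, with 4 higher and 4 lower than naive in each memory group (median log2 fold change 0.05 and 0.06). In CD45RBhi 2 instead of 4 were lower without naive replicate 1, 2 or 3 or CD45RBhi replicate 1, 3 or 4. Ctla2a, a cysteine protease inhibitor of activated T cells, rose from 3.70 ± 1.09 CPM to 103 ± 8.80 and 84.2 ± 10.1, and Reck, a membrane inhibitor of metalloproteinases, from 30.9 ± 0.943 to 67.6 ± 6.61 and 55.0 ± 9.27. Slpi, secretory leukocyte protease inhibitor, fell from 9.31 ± 1.47 CPM to 0.387 ± 0.182 and 0.319 ± 0.174. Timp2, an inhibitor of metalloproteinases, fell from 205 ± 10.5 CPM to 11.9 ± 3.27 and 32.7 ± 3.64, and was the 1 gene of these lists called between the memory groups without pairs (-1.46 ± 0.165, adjusted p = 0.00338). With pairs Timp2 stayed lower in CD45RBhi, and 3 of these genes were higher, among them Ctla2a (0.30, adjusted p = 0.0202) and Reck (0.31, adjusted p = 0.0381). Both of these calls were lost without pair 1, 3 or 4.

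The level of an inhibitor relative to a known target was followed as the log2 ratio of their CPM. Gene length is not removed from this ratio, so it is read only between libraries. For Cst7 to Ctsc, the ratio was -0.38, -0.46, -0.51 and -0.47 in CD45RBhi and -0.57, -0.58, -0.60 and -0.73 in CD45RBlo libraries (naive -0.85 ± 0.0783, n = 3). Every CD45RBhi library lay above every CD45RBlo library. The difference of 0.17 had an exact two-sided permutation p = 0.0286, the smallest that 4 against 4 libraries can give, and p = 0.114 when adjusted over the 4 ratios tested. For Serpinb6b to Gzma it was -4.22, -2.82, -3.80 and -3.29 in CD45RBhi and -4.77, -4.27, -4.07 and -4.41 in CD45RBlo libraries (naive 2.66 ± 0.254). The groups overlapped, and CD45RBhi was higher in 4 of 4 pairs, with a difference of 0.85 (exact permutation p = 0.0571, adjusted p = 0.114). For Serpina3g to Ctsb the difference was -0.33 (exact permutation p = 0.143, adjusted p = 0.190), with -2.31 ± 0.0593 in CD45RBhi, -1.98 ± 0.311 in CD45RBlo and -6.27 ± 0.711 in naive libraries. For Serpinb9 to Gzmb it was 0.02 (exact permutation p = 0.857, adjusted p = 0.857), with -1.01 ± 0.129, -1.02 ± 0.140 and 3.10 ± 0.734. None of the 4 ratios passed after adjustment.

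**Figure D5:**
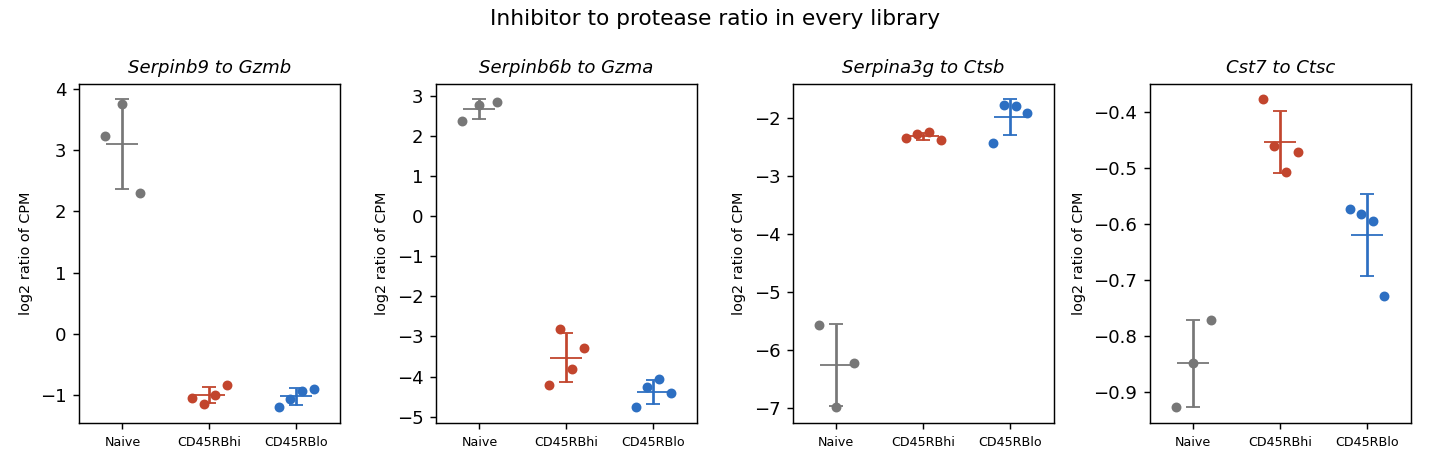
Log2 ratio of the CPM of an inhibitor to that of a protease in each library, with mean and SD; panels have separate axes. The ratios to Gzmb and Gzma are lower in memory than in naive libraries, those to Ctsb and Ctsc higher, and the Cst7 to Ctsc values of CD45RBhi and CD45RBlo do not overlap.

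The genes most like each member were sought by Pearson's r of log2 CPM among 8401 genes. Over the 8 memory libraries the nearest to Serpinb1a were Marveld1 (0.95), Plekhf1 (0.95) and Litaf (0.94), and to Serpina3g Ppp1r16a (0.98), Tubgcp5 (0.97) and Mical1 (0.94). Nearest to Serpinb6a were Tab1 (0.99), Slamf6 (0.98) and Appl2 (0.97), to Serpinb9 Frmd6 (0.99), Slfn8 (0.98) and Sgpl1 (0.97), to Serpinb6b Cebpg (0.93), Fam73b (0.91) and Tti2 (0.89), and to Cst7 Nudt19 (0.99), Znrf3 (0.97) and Rab23 (0.96). Over all 11 libraries, where the step from naive to memory weighs most, Serpinb9 was nearest to Syngr2, Gzma and Cd48, and Serpina3g to Myo1e, Plekhf1 and Plscr1. There Cst7 was nearest to Ccnd3, Zyx and Gzmm, Serpinb6b to Plcd1, Nrp1 and RP23-21F2.5, Serpinb1a to Lrrfip2, Golm1 and Ttc21b, and Serpinb6a to Slamf6, Sharpin and Ttc4. Those r ran from 0.95 to 0.998. The points share replicate numbers and depth, and these values are a description.

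The sorted type was checked by 8 CD8 T cell markers, all detected in every group and summing to 7765 to 9743 CPM. Against naive, 4 of the 8 were higher and 1 lower in CD45RBhi, and 1 was higher and 1 lower in CD45RBlo. Neutrophils express Serpinb1a. Of 18 myeloid markers S100a9, Mpo, Elane and Clec4d had 0 counts in all 11 libraries. The 18 summed to 36.1 to 58.9 CPM in naive, 40.8 to 48.0 in CD45RBhi and 36.0 to 51.3 in CD45RBlo libraries, but members went opposite ways: of 7 tested, 4 were lower and 2 higher than naive in each memory group. Lyz2, lysozyme, fell from 219 to 509 counts in naive libraries to 1 to 18 in CD45RBhi and 3 to 35 in CD45RBlo, and Csf1r and Adgre1 fell too. Cd68 rose from 56 to 100 counts to 521 to 891 and 494 to 574, and Itgam rose too. The part of myeloid cells in the Serpinb1a counts was not tested. NK cells express Cst7 and Serpinb9, and the 9 NK markers summed to 73.9 to 80.1 CPM in naive, 381 to 581 in CD45RBhi and 433 to 573 in CD45RBlo libraries, with 6 of 8 tested higher in each memory group. Klra8 and Klra4 were at 0 in naive libraries. Ncr1 stayed at 0 to 2 counts in all 11 libraries. Tyrobp was at 34 to 52 counts in naive, 37 to 65 in CD45RBhi and 18 to 43 in CD45RBlo libraries. Fcer1g was at 26 to 60, 42 to 116 and 31 to 38 counts in the same order. Memory CD8 T cells share many of these markers, and the part of NK cells in the rise of Cst7 and Serpinb9 was not tested. The 12 B cell markers summed to 1216 to 1377 CPM in naive, 214 to 507 in CD45RBhi and 202 to 446 in CD45RBlo libraries, most of it Ighm. Of 10 tested, 8 were lower in CD45RBhi and 9 in CD45RBlo, and Cd22 was higher in both. Dendritic cell markers (10 genes) summed to 108 to 131, 165 to 321 and 131 to 233 CPM, with 2 of 7 tested higher and 3 lower in each memory group. Itgax went from 8 to 22 counts in naive libraries to 1817 to 4693 in CD45RBhi and 1185 to 3118 in CD45RBlo. Xcr1 rose too, while H2-Aa, H2-Ab1 and H2-Eb1 fell. CD4 and regulatory T cell markers (6 genes) summed to 6.49 to 7.68, 21.7 to 35.7 and 24.2 to 34.2 CPM, with 2 of 5 tested higher and 1 lower. Il2ra went from 10 to 21 counts in naive libraries to 270 to 484 in CD45RBhi and 229 to 390 in CD45RBlo, and Zbtb7b rose too. Foxp3 fell from 16 to 30 counts to 0 in CD45RBhi and 0 to 1 in CD45RBlo, and Cd4 was at 0 to 9 counts throughout. Erythroid and platelet markers (11 genes) summed to 253 to 544, 1.52 to 3.35 and 3.84 to 30.1 CPM, with all 9 tested lower in each memory group.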

How the data were processed

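The deposited data are unnormalized whole-read counts per Ensembl gene in 11 libraries. Per the submitters' processing notes, the authors used the builds mm10 and GRCm38 with DESeq2, featureCounts and SAMtools. The aligner, annotation release, strandedness and handling of multi-mapping reads were not given in the sources used here. Genes were kept with filterByExpr (minimum count 10; 13735 of 52636 genes) with TMM scaling. One model of the 3 group means over all libraries was fitted with edgeR 4.0.16 (R 4.3.3). Two-sided quasi-likelihood tests were adjusted over all genes by Benjamini-Hochberg at a threshold of 0.05. The 95% intervals use 8 residual degrees of freedom. CPM are TMM-scaled, and log2 CPM use a prior count of 2.

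Deviations of same-numbered memory libraries correlated at 0.191 to 0.452 across genes and differently numbered ones at -0.33 to 0.0284. This pairing comes from the data, not from the labels, and the 8 memory libraries were also fitted with their number as a block. It has 3 residual degrees of freedom before moderation. Between naive and memory, same-numbered libraries gave -0.10 to 0.0565, so no pairing was used there. No 2 libraries of a group were identical.

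The genes, lists and ratios were chosen with earlier results of these data known. Genes named from the lists were the protease partners and up to 4 others per list by smallest p among those called, and the 3 nearest by correlation with a mean of at least 10 CPM. Gene lengths came from GENCODE M21. The fits were tested on simulated data. Alternatives were DESeq2 1.42.0, other scaling, no filter, fewer groups, blocks, summed paralogs and leaving out libraries.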

Additional observations from a re-analysis of the deposited data

Results flagged for a closer look

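In groups of 4 libraries, 5 of 52 sets of values had a library far from the other three; chance alone marks about 1 in 20 groups. CD45RBlo replicate 1 was high for Serpinb9 at 239 CPM (the others 197 to 201), for Gzmm at 148 CPM (58.9 to 71.9) and for Ctsd at 1784 CPM (1666 to 1674). CD45RBhi replicate 1 was high for Gzmm at 212 CPM (103 to 114). CD45RBhi replicate 2 was low for Gzmk at 184 CPM (248 to 249).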

How the results depend on the processing

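Against naive, the rises of Serpinb1a, Serpinb6b, Serpinb9, Serpina3g and Cst7 kept their direction and side of the threshold in each of 18 alternatives per comparison. Those of Serpinb6b were 0.85 (CD45RBhi) and 0.86 (CD45RBlo) with paralogs summed, since that sum also holds the counts of Serpinb6a. The same sum stood for Serpinb6a, which was then called too (edgeR adjusted p = 0.000147 and 0.000126), so 6 of the 6 genes were called. That call of Serpinb6a rests on the counts of both genes. Serpinb9b was called in CD45RBlo against naive with no filter (adjusted p = 0.0495), by DESeq2 (0.0327), without CD45RBhi replicate 4 (0.0384) and without CD45RBlo replicate 1 (0.0339). Between CD45RBhi and CD45RBlo, 0 of the 6 genes were called, 1 by DESeq2, 2 with the replicate block over the 8 memory libraries, 2 with that block without pair 1, and 1 without pair 2, 3 or 4. Leaving out single libraries without the block called 0. Of all genes, 17 were called, 144 by DESeq2, 4 with the memory groups alone, 6 to 15 with a library left out, 707 with the replicate block, and 344, 667, 167 and 300 with the block and without pair 1, 2, 3 or 4. Values near 0 changed sign. Serpinb6a against naive was -0.051 (CD45RBhi) and -0.076 (CD45RBlo) with library size only, -0.0079 with the replicate block over all 11 libraries in CD45RBlo, and -0.042 to 0.24 and -0.029 to 0.20 with a library left out. Between the memory groups Serpinb6a was -0.0073 with paralogs summed, -0.10 to 0.19 with a library left out, and -0.011 and -0.0022 with the replicate block without pair 2 or 4. With a library left out Serpinb6b ran from -0.13 to 0.012, Ctsb from -0.023 to 0.10 and Ctsl from -0.061 to 0.45. With the replicate block and a pair left out, Serpinb6b reached 0.022 without pair 3, Ctsb -0.0049 and -0.0095 without pair 3 or 4, and Serpina3f 0.044 without pair 2. With a library left out the ratio differences ran from -0.042 to 0.063 for Serpinb9 to Gzmb, 0.61 to 1.08 for Serpinb6b to Gzma, -0.48 to -0.26 for Serpina3g to Ctsb and 0.13 to 0.18 for Cst7 to Ctsc. The extremes 1.08 (without CD45RBhi replicate 1) and -0.48 (without CD45RBlo replicate 1) each had an exact permutation p = 0.0286 before adjustment. That is the smallest p this test can give with a library left out. By pairs the Cst7 to Ctsc difference of 0.17 had an exact sign-flip p = 0.125, the smallest that 4 pairs can give. Among the 6 genes the block over the 8 memory libraries changed the calls of Serpinb1a and Serpina3g and no other. Apart from the summed paralogs, the causes of these shifts were not tested. Depth limits Serpinb9b, Serpinb1b, Cma1, Slpi and Gzmc, whose memory means lie under 2 CPM, and Serpine2, at 1.29 CPM in CD45RBlo.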
